A study of Mus musculus with 12 samples.

Results

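The genes described here encode the ATP-dependent chromatin remodelers of the mouse, and their RNA was measured in hippocampus of 6 Madison (MSN) and 6 hsd:ICR (ICR) mice. They are 42 genes chosen by name: 26 subunits of the SWI/SNF complex, the ATPases of the ISWI (2 genes), CHD (9 genes) and INO80 (3 genes) families, and the ATPases Atrx and Hells. Every one of the 42 was found on the array by its symbol in the platform annotation, among 19939 genes that have a transcript cluster of their own. The array reads each transcript through a group of probes, called a transcript cluster. The members had 76 such clusters, and each gene was represented by the one with the highest mean intensity.

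The MSN line, now nearly inbred and described as manic, descends from ICR, an outbred stock. All mice were adult males of about the same age, with no treatment named beyond the anaesthesia before death. Their home-cage activity had been observed the day before, and RNA of each macrodissected hippocampus was hybridized to its own Affymetrix Mouse Gene 1.0 ST array. All MSN mice came from 1 line, so a difference tied to the phenotype and one tied to alleles fixed by inbreeding cannot be told apart. In bulk tissue, fewer cells of a type and less RNA per cell cannot be told apart either.

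Remodelers use ATP to slide, eject or exchange nucleosomes, and so open or close DNA to transcription factors. SWI/SNF assembles around one of the alternative motors Smarca4 (Brg1) and Smarca2 (Brm). In neurons several of its subunits are swapped for neuron-specific relatives, such as Actl6b for Actl6a and Ss18l1 for Ss18. ISWI complexes space nucleosomes evenly, the CHD family includes the motors of the NuRD corepressor, and the INO80 family exchanges variant histones. Mutations in several of these genes, among them Arid1b, Chd8, Chd7 and Atrx, are known to cause disorders of brain development.

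In 3 of the 42 members, Smarca4, Brd7 and Smarca1, every MSN intensity was below every ICR intensity, against 0.867% of all clusters. With every array brought to 1 common median Smarca4 alone stayed so, against 0.431%. Of the 3, only Smarca4 had an adjusted p under 0.05 from limma (0.0195, against 0.195 for Brd7 and 0.315 for Smarca1). The 250 bases upstream of the annotated starts of these 3 genes are shown. The sequences are from RefSeq on build GRCm38.p6, read 5′ to 3′ along the gene, and the capitals mark GC boxes (GGGCGG) and CCAAT boxes (CCAAT) on either strand. The Smarca4 sequence lies at chr9:21615919-21616168 on the plus strand, that of Brd7 at chr8:88362173-88362422 on the minus strand, and that of Smarca1 at chrX:47892614-47892863 on the minus strand.
Smarca4: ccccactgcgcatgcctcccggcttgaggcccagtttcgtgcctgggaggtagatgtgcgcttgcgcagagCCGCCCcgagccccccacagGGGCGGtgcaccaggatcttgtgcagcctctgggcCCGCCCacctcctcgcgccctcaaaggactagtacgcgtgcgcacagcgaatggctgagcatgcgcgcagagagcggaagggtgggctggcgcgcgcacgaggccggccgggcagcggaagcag
Brd7: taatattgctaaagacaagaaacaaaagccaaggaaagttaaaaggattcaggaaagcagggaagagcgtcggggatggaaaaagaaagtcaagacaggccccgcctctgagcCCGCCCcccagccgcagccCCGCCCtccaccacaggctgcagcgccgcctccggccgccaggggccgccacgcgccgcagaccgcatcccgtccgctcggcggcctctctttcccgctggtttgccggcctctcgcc
Smarca1: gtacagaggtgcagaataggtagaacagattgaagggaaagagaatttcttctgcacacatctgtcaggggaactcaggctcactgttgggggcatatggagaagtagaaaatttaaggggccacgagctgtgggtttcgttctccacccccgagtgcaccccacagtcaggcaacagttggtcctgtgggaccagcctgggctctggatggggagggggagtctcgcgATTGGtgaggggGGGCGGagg
The Smarca4 stretch holds 3 GC boxes and 25 CG dinucleotides, the Brd7 stretch 2 GC boxes and 22 CG dinucleotides, and the Smarca1 stretch 1 GC box, 1 CCAAT box and 6 CG dinucleotides. The RefSeq table held a promoter for 34 of the 42 members; those of Arid2, Bcl7a, Chd1, Chd2, Chd3, Chd7, Smarce1 and Ss18 were not used here. For the 5 members with more than 1 promoter in the table, 1 was used. The full table was neither reduced to 1 promoter a gene nor matched to the members for intensity on the array. A GC box was found within 250 bases upstream of 29 of the 34 members (85.3%), against 32.7% of all 32851 promoters in the table. A CCAAT box was found in 9 of the 34 (26.5%, against 33.8% of all), a TATAAA motif in 1 (2.94% against 12.4%) and a CACGTG motif in 3 (8.82% against 6.02%). The median number of CG dinucleotides was 23.5 in the members and 6 over all promoters. Both strands were searched for each motif, matches of different motifs could share bases, and a match describes the sequence only.

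The arrays had median intensities of 270 to 298 over all clusters and within-strain correlations of log2 intensity of 0.992 to 0.997. That span of medians matters for small differences, so results with every array brought to 1 common median are also given. Defining markers of hippocampal neurons were bright, from 1252 for Prox1 to 11626 for Camk2a as means over the 12 mice. The array of ICR replicate 3 stood apart. On it 86 clusters read more than 0.5 on the log2 scale above every other array, against 0 to 9 on each of the others. Gabra6, a receptor subunit known from granule cells of the cerebellum, read 4983 there and 47.2 to 88.7 on the other 11 arrays. Of 15 genes known from the cerebellum, listed after the values of this array had been seen, 14 were higher on it than on any other array. Their summed intensity was 35618, against 9829 to 10840 on the other ICR arrays and 9208 to 10933 on the MSN arrays. For the whole lists of members and of partner genes, the counts called, without overlap or below 0 are therefore also given without that mouse. Most other counts below include it.

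Of the 42 remodeler genes, 1 was lower and 0 were higher in MSN than in ICR hippocampus at an adjusted p under 0.05 (limma with Benjamini-Hochberg adjustment over 23410 clusters with a gene). Over all clusters tested, 0.474% were called lower and 0.303% higher. The called gene was Smarca4, which the study itself had named from these arrays, so its call is no independent evidence. The balance of calls over all clusters was 111 lower and 71 higher; it was 109 lower and 131 higher after quantile normalization, and 89 lower and 115 higher with every array brought to 1 common median. At an unadjusted p under 0.05 from limma, 9 members were lower, against 7.50% of all clusters, and 1 was higher, against 5.18%. With every array brought to 1 common median this became 1 member lower (Smarca4), against 4.20% of all clusters, and 1 higher (Arid1b), against 8.15%. In 3 members every MSN value was below every ICR value, against 0.867% of all clusters, and in 0 members every MSN value was above, against 0.568%. With arrays brought to 1 common median, Smarca4 was the 1 member without overlap, against 0.431% of all clusters lower. Without ICR replicate 3 the adjusted call was the same gene, 8 members were lower and 1 higher at an unadjusted p under 0.05, against 8.61% and 5.21% of all clusters in the same fit, and 4 did not overlap, all lower in MSN mice, against 1.41%, Bcl7a being the added one.

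The sign of the difference leaned to one side. The log2 fold change, MSN minus ICR on the log2(intensity + 16) scale, was below 0 in 34 of the 42 members (81.0%) and in 54.5% of all clusters tested, with medians of -0.0431 and -0.0079. Without ICR replicate 3 it was below 0 in 33 members (78.6%) and in 55.7% of all clusters, with medians of -0.0381 and -0.00971. Scaling moved both figures: 78.6% of members against 44.6% of all clusters were below 0 after quantile normalization, and 66.7% against 40.5% with arrays brought to 1 common median. The differences themselves were small. All 42 of the 95% intervals excluded a log2 difference of 1 in either direction, and 41 lay inside plus or minus 0.25, the exception being Chd7.

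**Figure D1:**
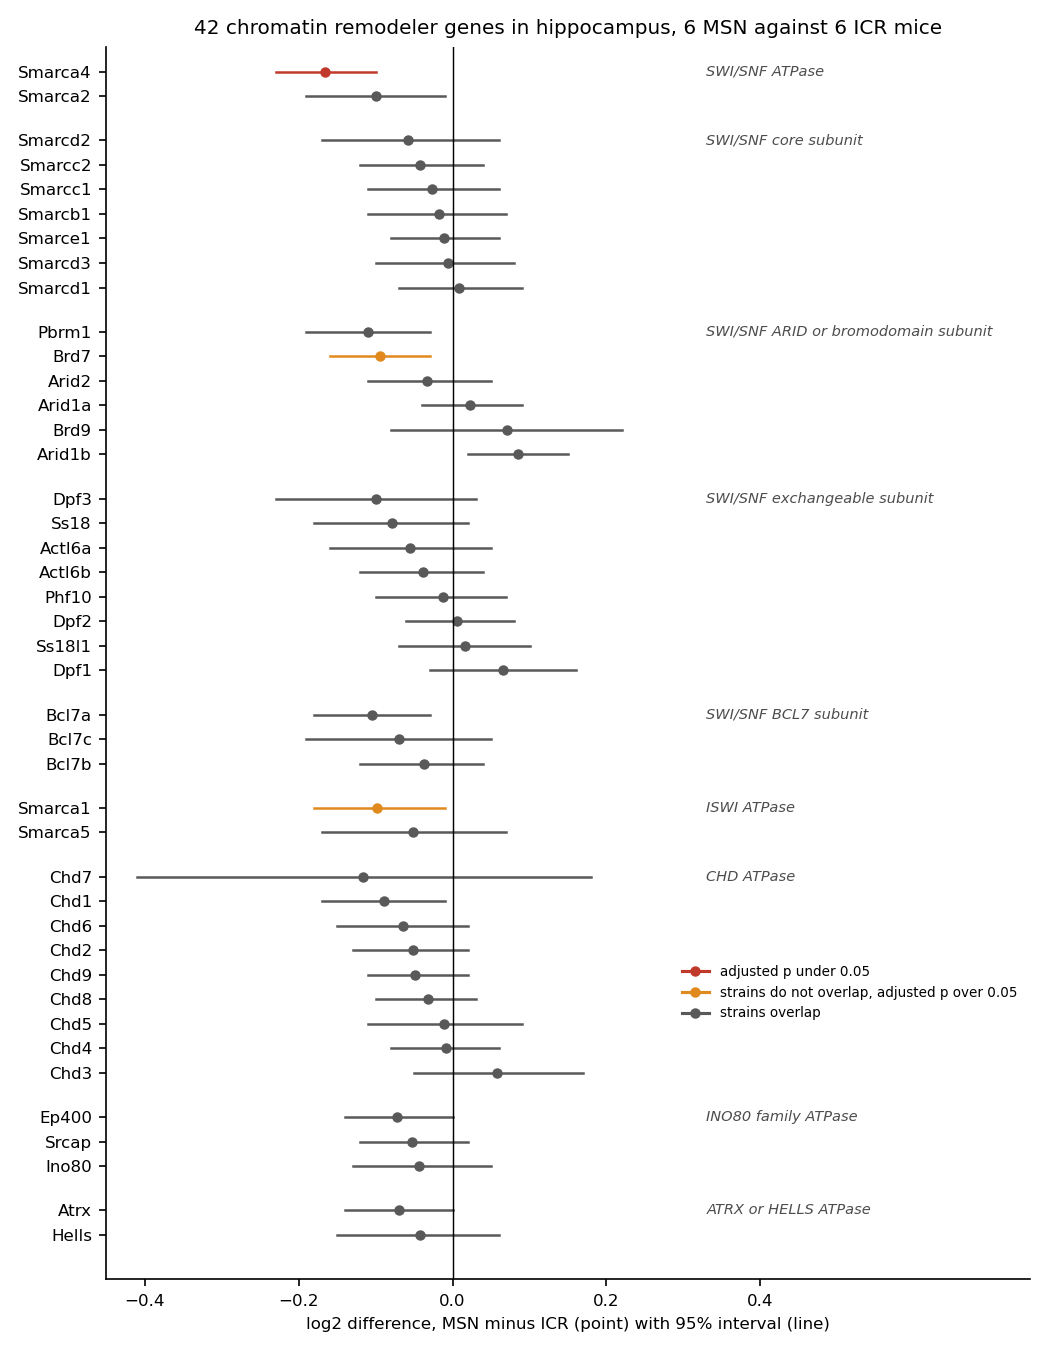
The log2 difference between MSN and ICR mice (x axis, point) with its 95% interval (line) for each of the 42 remodeler genes, grouped by role, 6 mice a strain. Smarca4 (red) was called at an adjusted p under 0.05, Brd7 and Smarca1 (orange) did not overlap between strains, and 34 of the 42 points lie below 0.

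Both SWI/SNF motors read lower on average in MSN hippocampus, and only the Smarca4 difference passed the test. Smarca4, the Brg1 ATPase, read 1874, 1891 and 1958 in MSN mice and 2052, 2150 and 2193 in ICR mice (lowest, median and highest intensity of 6). The gap between the strains was wider than the range of the MSN values. Its strain means were 1903 ± 33.7 and 2137 ± 50.3 (SD, n = 6 each). Smarca4 read lower in MSN mice by 0.17 on the log2 scale (SE 0.0297, limma adjusted p = 0.0195), a change of -10.9%. The study cautioned that sequence differences where probes bind might affect the values of some genes. Smarca4 was not among the genes that the study tested by RT-qPCR. For Smarca4 the two-sided exact permutation test over the 12 mice gave p = 0.00216, the smallest it can give. Any gene without overlap gets that p, as Brd7 and Smarca1 did, so it only restates the absence of overlap. Scaling to a common array median ended the call (log2 fold change -0.14, adjusted p = 0.118 from limma), as did leaving out MSN replicate 4 (adjusted p = 0.0525 from limma) or ICR replicate 6 (adjusted p = 0.0551 from limma). Over all alternatives its adjusted p from limma ran from 0.00346 to 0.118. Smarca2, the Brm ATPase that takes the same place in the complex, read 2685, 2908 and 3127 in MSN and 3052, 3066 and 3292 in ICR mice. Of the MSN mice 4 were below all ICR mice and the other 2 lay among them. The Smarca2 difference was -0.10 on the log2 scale (SE 0.0434, limma adjusted p = 0.354).

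**Figure D2:**
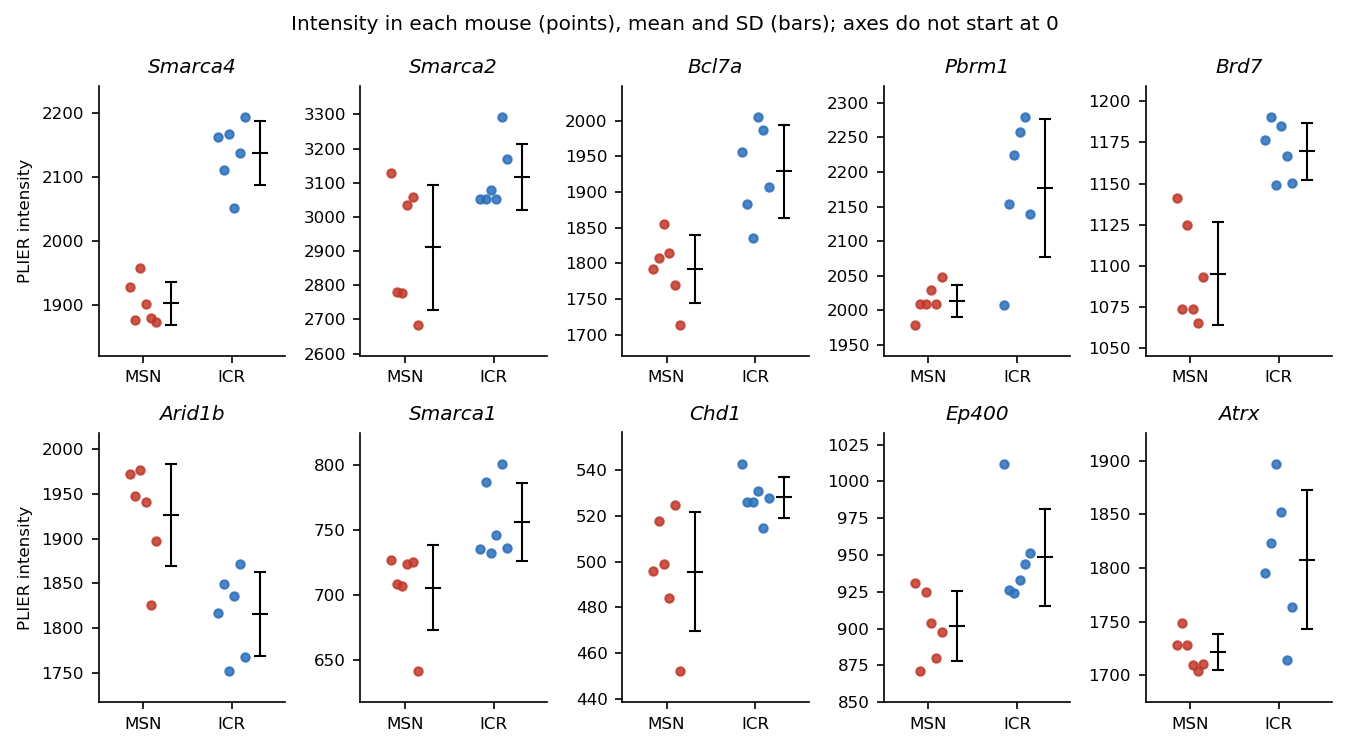
PLIER intensity in each mouse (points) with the mean and SD (bars) of 6 MSN and 6 ICR mice, for the 10 members with an unadjusted p under 0.05 from limma; each panel has its own axis, which does not start at 0. The strains do not overlap for Smarca4, Brd7 and Smarca1, and Arid1b is the 1 gene of the 10 with the higher mean in MSN mice.

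The PBAF form of SWI/SNF carries Pbrm1, Brd7 and Arid2. Brd7, a bromodomain subunit, read 1065, 1083 and 1142 in MSN and 1149, 1172 and 1190 in ICR mice, with no overlap on the deposited scale. Brd7 differed by -0.09 on the log2 scale (SE 0.0302, limma adjusted p = 0.195), and of the alternatives run only the fit to untransformed intensities called it (limma adjusted p = 0.0418, over a range of 0.0418 to 0.483). Pbrm1, the polybromo subunit that reads acetylated histones, read 1979, 2010 and 2048 in MSN and 2008, 2189 and 2279 in ICR mice. Of the ICR mice 5 were above all MSN mice, and 1 lay among them. The log2 fold change of Pbrm1 was -0.11 (SE 0.035, limma adjusted p = 0.19). The other 2 Pbrm1 clusters had log2 fold changes of -0.05 and -0.06. Arid2, the DNA-binding subunit of PBAF, averaged 1244 ± 34.6 in MSN and 1274 ± 61.4 in ICR mice (SD, n = 6 each), a log2 fold change of -0.03.

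The subunits of the BAF form had signs on both sides of 0. Arid1b, the DNA-binding subunit whose loss causes Coffin-Siris syndrome in people, read 1826, 1945 and 1977 in MSN and 1752, 1827 and 1872 in ICR mice. Of the MSN mice 5 were above all ICR mice. For Arid1b the log2 fold change was 0.09 (SE 0.0325, limma adjusted p = 0.286). Arid1a, its alternative in the complex, averaged 1886 ± 21.8 against 1857 ± 53.1 (SD, n = 6 each), a log2 fold change of 0.02. Bcl7a, a small subunit, read 1714, 1800 and 1855 in MSN and 1836, 1932 and 2005 in ICR mice. Of the MSN mice 5 were below all ICR mice. Bcl7a had a log2 fold change of -0.11 (SE 0.0335, limma adjusted p = 0.19), and those of Bcl7b and Bcl7c were -0.04 and -0.07, the latter -0.03 without ICR replicate 3. Brd9, the bromodomain subunit of the non-canonical form, had a log2 fold change of 0.07, which was 0.00 without ICR replicate 2, a mouse that read 947 where the other 5 ICR mice read 1240 to 1291.

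The core subunits Smarcb1, Smarcc1, Smarcc2, Smarcd1, Smarcd2, Smarcd3 and Smarce1, which hold the complex together, had log2 fold changes between -0.06 and 0.01, and 0 of the 7 had an unadjusted p under 0.05 from limma. The 2 extra clusters of Smarce1 had log2 fold changes of -0.02 and -0.03. Whether any of its 3 clusters, the representing one included, measures a copy of the gene elsewhere is not given. Smarcd2, the lowest of the 7 core subunits over all mice, was at -0.02 without ICR replicate 3, where Smarcc1, Smarcc2 and Smarcd3 were at -0.04. Scaling the arrays to the same median turned the sign of Smarcb1, Smarcd3 and Smarce1. Over the 26 SWI/SNF members 19 were below 0 (73.1%, median -0.0352), against 54.5% of all clusters (median -0.0079).

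Neurons and progenitors use different SWI/SNF subunits, so the exchangeable pairs were compared as ratios within each mouse. Actl6b, the actin-related subunit of neurons, averaged 2079 ± 83.8 in MSN and 2136 ± 87.6 in ICR mice, and its progenitor relative Actl6a 1414 ± 97.0 and 1469 ± 61.9 (SD, n = 6 each). The log2 ratio of Actl6b to Actl6a differed by 0.02 between the strains, less than its SD of 0.142 in MSN and 0.109 in ICR mice. The ratio of Ss18l1, the calcium-responsive subunit of neurons, to Ss18 differed by 0.09, with SDs of 0.0855 and 0.0608, and 4 MSN mice were above all ICR mice. The PHD-finger pairs gave 0.08 for Dpf1, a neuronal form, over Phf10, a progenitor form, and -0.11 for Dpf3 over Dpf2. The motor pair Smarca2 over Smarca4 gave 0.07, and 3 MSN mice were above all ICR mice. The pair Smarcc2 over Smarcc1 gave -0.02, Arid1b over Arid1a 0.06, and Smarca1 over Smarca5 -0.05. In all 8 pairs the strains overlapped, and the ratios were described without a test. Means of the other exchangeable subunits, MSN before ICR (SD, n = 6 each), were 683 ± 33.9 and 652 ± 30.4 for Dpf1, 1354 ± 28.8 and 1349 ± 48.2 for Dpf2, 406 ± 29.6 and 436 ± 36.0 for Dpf3, 613 ± 35.7 and 618 ± 15.8 for Phf10, 551 ± 29.9 and 583 ± 34.5 for Ss18, and 867 ± 35.2 and 858 ± 33.3 for Ss18l1.

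**Figure D3:**
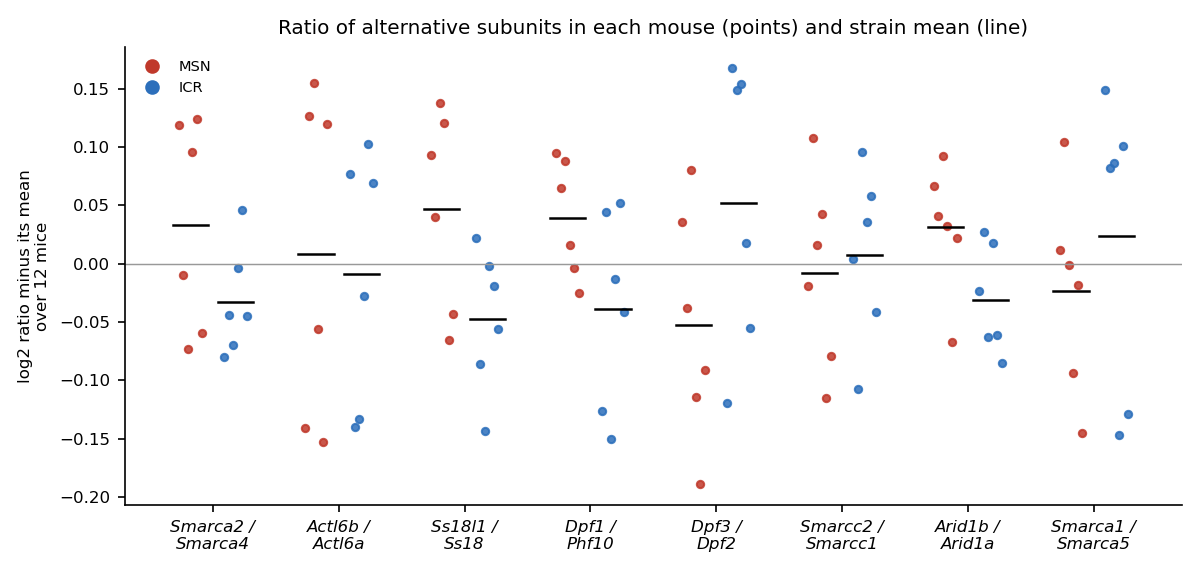
The log2 ratio of alternative subunits in each mouse, centred on its mean over the 12 mice (y axis), for 8 pairs (x axis), with points for mice (MSN red, ICR blue) and lines for strain means. The strains overlap in every pair, and the widest gaps between strain means are those of Dpf3 over Dpf2 (-0.11) and Ss18l1 over Ss18 (0.09).

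Of the 18 members that are motors of a complex, 17 had a log2 fold change below 0, against 54.5% of all clusters. The medians were -0.0523 and -0.0079. Chd4 and Chd5 turned to 0.02 and 0.02 with arrays brought to 1 common median, and Chd7 turned to 0.04 without ICR replicate 3. Smarca1 (Snf2l), an ISWI motor, read 641, 716 and 727 in MSN and 732, 741 and 801 in ICR mice. The strains did not overlap on the deposited scale, although the highest MSN value and the lowest ICR value were close, and MSN replicate 6 lay apart from the other MSN mice. The mean difference of Smarca1 was -0.10 on the log2 scale (SE 0.0398, limma adjusted p = 0.315). Smarca5 (Snf2h), the other ISWI motor, averaged 746 ± 39.6 in MSN and 775 ± 66.9 in ICR mice (SD, n = 6 each), a log2 fold change of -0.05.

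In the CHD family, Chd1, which binds histone H3 methylated at active promoters, read 452, 497 and 525 in MSN and 515, 527 and 543 in ICR mice. Of the MSN mice 4 were below all ICR mice. Chd1 had a log2 fold change of -0.09 (SE 0.0375, limma adjusted p = 0.333). The motors of NuRD had differences near 0 relative to their spread: Chd3 averaged 2418 ± 112 against 2326 ± 167, Chd4 1631 ± 45.3 against 1642 ± 51.3, and the neuronal Chd5 1710 ± 87.2 against 1724 ± 101 (MSN against ICR, SD, n = 6 each). Chd3 was the 1 motor with a positive log2 fold change, 0.06, which was 0.02 without ICR replicate 3. The remaining CHD motors averaged 973 ± 47.9 against 1017 ± 33.2 for Chd6, 1152 ± 31.3 against 1178 ± 27.2 for Chd8, and 1700 ± 45.6 against 1758 ± 25.4 for Chd9. Chd2, a relative of Chd1, read 614, 635 and 699 in MSN and 653, 665 and 683 in ICR mice. The log2 fold changes of these 4 genes were -0.06 to -0.03. The other Chd6 cluster had a log2 fold change of 0.06, with the opposite sign.

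Chd7, the gene of CHARGE syndrome and a remodeler known from granule cells of the cerebellum, read far higher in 1 mouse than in the other 11. Its representing cluster read 1044, 1072 and 1167 in MSN and 1006, 1056 and 2043 in ICR mice, the highest being ICR replicate 3. The log2 fold change of -0.12 (SE 0.138, adjusted p = 0.768 from limma) became 0.04 without that mouse (adjusted p = 0.791 from limma). All 30 Chd7 clusters read highest on ICR replicate 3, by a median of 0.68 on the log2 scale above the ICR mean. All 30 had a log2 fold change below 0 (-0.28 to -0.01), 0 of them with an unadjusted p under 0.05 from limma, and without that mouse 15 were below and 15 above 0 (-0.13 to 0.07). The high cerebellar genes on the same array are the values that moved with Chd7, and their part in its level was not tested. The 30 clusters belong to 1 gene and are not replicates of each other.

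**Figure D4:**
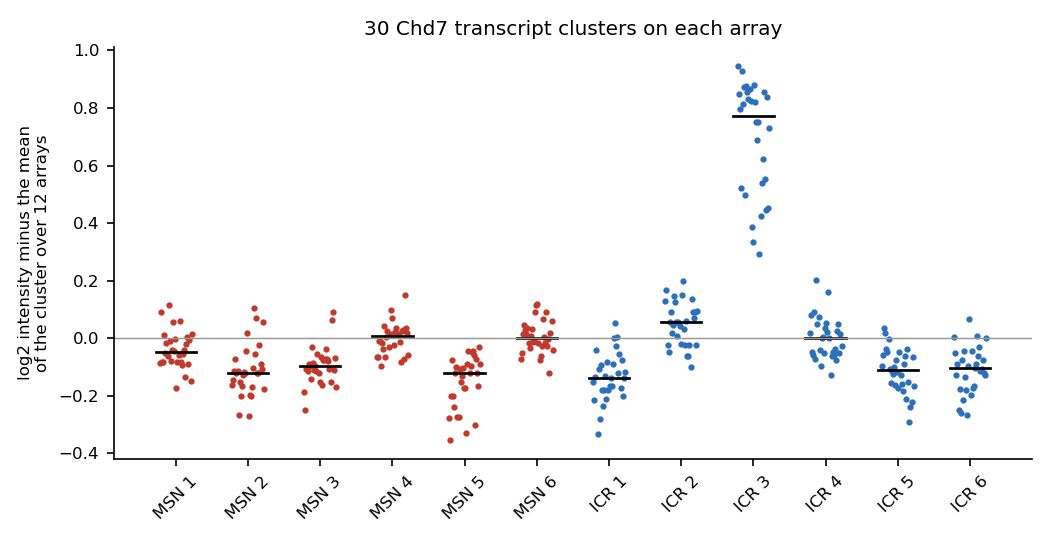
The log2 intensity of the 30 Chd7 transcript clusters (points) on each of the 12 arrays (x axis), each cluster centred on its mean over the arrays, with the median of each array as a line (MSN red, ICR blue). All 30 clusters are highest on ICR replicate 3, and the other 11 arrays lie close together.

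The 3 INO80 family motors had log2 fold changes below 0, and 0 of them passed the test. Ep400, the motor of the TIP60 acetyltransferase complex, read 871, 901 and 931 in MSN and 924, 938 and 1012 in ICR mice. Of the MSN mice 4 were below all ICR mice. The log2 fold change of Ep400 was -0.07 (SE 0.0333, limma adjusted p = 0.391). Srcap, which loads a variant of histone H2A, averaged 2040 ± 67.3 against 2117 ± 52.2, and Ino80, the motor that gave the family its name, 1100 ± 50.2 against 1135 ± 56.8 (MSN against ICR, SD, n = 6 each). Atrx, the X-linked remodeler of heterochromatin, read 1704, 1719 and 1749 in MSN and 1714, 1810 and 1897 in ICR mice. Of the ICR mice 5 were above all MSN mice. Atrx differed by -0.07 on the log2 scale (SE 0.0317, limma adjusted p = 0.384). Hells, a helicase of dividing cells that assists DNA methylation, averaged 124 ± 8.58 against 128 ± 7.73.

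The members were mostly bright on this array. The median over members of the mean intensity was 1202, against 382 over all clusters tested, and 41 of the 42 were above that median, Hells being the one below. Among the clusters above the median mean, 52.8% had a log2 fold change below 0 (median -0.0042), against 33 of the 41 members there (80.5%). The SD of log2 intensity had a median over members of 0.0581 in MSN and 0.0525 in ICR mice, against 0.0868 and 0.0855 over all clusters, and 0.068 and 0.0699 over the clusters above the median mean.

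Smarca4 was also read beside its neighbors on chromosome 9, by their order in the RefSeq gene table. Over all clusters tested 54.5% were below 0 and 0.474% were called lower. Of the 12 nearest genes with a cluster of their own, 6 on each side, 9 had a log2 fold change below 0 and 1 was called. The 9 were counted after rounding to 2 decimals, which left out Timm29, just below 0. The called neighbor, Yipf2, a Golgi membrane protein gene 2 places from Smarca4, averaged 498 ± 32.2 in MSN and 607 ± 33.4 in ICR mice (SD, n = 6 each). Its log2 fold change was -0.28 (SE 0.0493, adjusted p = 0.0195 from limma) and the strains did not overlap. Timm29 and Spc24, on either side of Smarca4, had log2 fold changes of 0.00 and -0.02. Dnm2, a dynamin of endocytosis 6 places away, had one of 0.08 (adjusted p = 0.286 from limma) with every MSN value above every ICR value, so the neighbors did not share a sign. These 12 genes are a narrow window, and Epor, 11 places from Smarca4, lies outside it. The study found Epor higher in MSN mice on the arrays and by RT-qPCR. It also reported a region of the same chromosome as enriched for changed genes. Whether that region takes in Smarca4 was not tested.

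**Figure D5:**
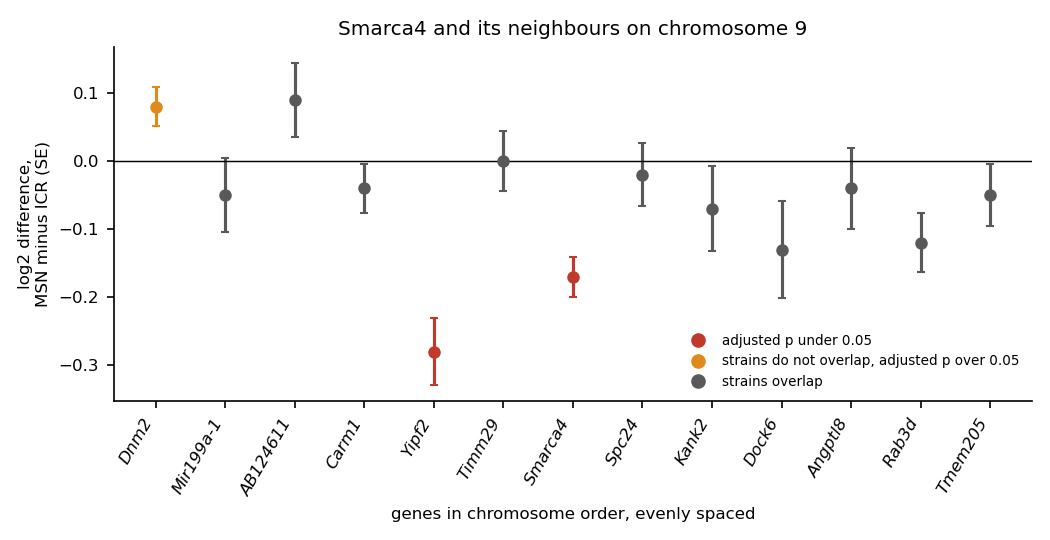
The log2 difference between MSN and ICR mice (y axis, points) with its SE (bars) for Smarca4 and its 12 neighbors in chromosome order (x axis, evenly spaced, not to scale). Smarca4 and Yipf2 (red) were called, Dnm2 (orange) did not overlap in the other direction, and Timm29, between the called genes, is at 0.00.

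The proteins that work with these motors, and related helicases of the same fold, were listed by function. Of 67 such partner genes 66 were found, and 1 was called lower and 1 higher, against 0.474% and 0.303% of all clusters. Without overlap were 2 lower and 2 higher in MSN mice, against 0.867% and 0.568% of all clusters. A log2 fold change below 0 was found in 38 partners (57.6%, median -0.0117), against 54.5% of all clusters (median -0.0079). Without ICR replicate 3 there was again 1 call in each direction, against 127 lower and 66 higher of all 23410 clusters. In the same fit 2 partners lower and 2 higher did not overlap, against 1.41% and 0.893% of all clusters. Below 0 were 36 partners (54.5%), against 55.7% of all clusters. Hltf, a helicase that helps replication past damaged DNA, read 247, 255 and 276 in MSN and 300.0, 319 and 344 in ICR mice. The strains did not overlap. Its log2 fold change was -0.29 (SE 0.0398, adjusted p = 0.00493 from limma). Smarcal1, which restarts stalled replication forks, read 993, 1019 and 1079 in MSN and 801, 881 and 931 in ICR mice, again with no overlap. Its log2 fold change was 0.24 (SE 0.0398, adjusted p = 0.0165 from limma). Neither is a subunit of SWI/SNF, although Smarcal1 carries the name.

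Next by p came Nfrkb, an INO80 subunit, at -0.13 on the log2 scale (limma adjusted p = 0.0881), then Actr6, a subunit of the SRCAP complex, at 0.23 (limma adjusted p = 0.0996), and Gatad2a, a NuRD subunit, at 0.11 (limma adjusted p = 0.139). The strains did not overlap for Nfrkb and Gatad2a. Epc1 of the TIP60 complex had a log2 fold change of -0.11, Cdk2ap1 of NuRD -0.15 and the helicase Chd1l -0.12. By complex, 6 of 12 INO80 partners, 5 of 11 ISWI partners, 6 of 10 NuRD partners and 12 of 16 SRCAP or TIP60 partners were below 0.

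Marker lists for the cell types of the hippocampus were read beside the members. All 5 markers of oligodendrocyte precursors were above 0, and 1 of them, Pdgfra, was called higher in MSN mice, with summed intensities of 4712 to 5203 in MSN and 4460 to 4880 in ICR mice. All 5 oligodendrocyte markers were also above 0 with 0 called. Of the 6 astrocyte markers 4 were below 0 with 0 called, and their sums ranged from 13490 to 15010 in MSN and 14412 to 16732 in ICR mice. Choroid plexus markers varied most from mouse to mouse, with sums of 8296 to 19811 in MSN and 6877 to 19672 in ICR mice. Sums for hippocampal neurons were 35247 to 37929 and 33792 to 37413, for microglia 3846 to 4392 and 3796 to 4360, for endothelium 2519 to 3512 and 2500 to 2840, and for progenitors and immature neurons 4554 to 4854 and 4625 to 6417, the last value being ICR replicate 3. On that array Neurod1, which is also on the cerebellar list, read 3138, against 1045 to 1242 on the other arrays. No other marker of progenitors and immature neurons read highest there, and Sox2 (1306) and Sox11 (502) read lowest there. The part of the marker lists in the remodeler values was not tested.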

How the data were processed

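Hippocampal RNA of 12 mice was measured, 6 per strain, 1 array each, grouped by the labels. The deposited values are linear intensity values per transcript cluster, which the authors made with PLIER and GC-bin background correction in Affymetrix Power Tools 1.12.0 (the submitters' processing notes); the genome build is not given in the sources used here. The analysis used log2(intensity + 16). Models with strain as their single term were fitted by limma 3.58.1 (R 4.3.3; lmFit, then eBayes, prior degrees of freedom 4) to the 23410 of 35556 clusters with a gene in the platform annotation, with Benjamini-Hochberg adjustment over them and calls at an adjusted p under 0.05. Adding 16 understates differences of dim clusters. The script was tested on simulated data. Members, partner genes and markers were chosen with earlier results of these data known, and the cerebellar list after ICR replicate 3 had been seen. Values per mouse are given for members called, with an unadjusted p under 0.05 or without overlap; up to 8 partners are named by p. Of 49 marker genes 47 were found. The number of arrays limits the precision, and no scan batches were given. Alternatives are in the closing section.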

Additional observations from a re-analysis of the deposited data

Results flagged for a closer look

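In 84 groups of 6 mice (42 members in each strain), 9 held a lowest or highest value that lay apart from the other 5 by Dixon's criterion at 95%; chance gives about 5% of groups. Chd7 read 2043 in ICR replicate 3, where the other ICR mice read 1006 to 1186. Brd9 read 947 in ICR replicate 2, against 1240 to 1291. In the same mouse Smarcb1 read 1130, against 1050 to 1070. Srcap read 1911 in MSN replicate 5, against 2045 to 2097 in the other MSN mice, and 2217 in ICR replicate 5, against 2077 to 2126. Chd2 read 699 in MSN replicate 5, against 614 to 645. Smarca1 read 641 in MSN replicate 6, against 707 to 727. Dpf2 read 1442 in ICR replicate 6, against 1307 to 1348, and Ep400 read 1012 in ICR replicate 1, against 924 to 951.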

How the results depend on the processing

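Most values kept their sign and their side of the threshold: of the recomputed values of single members 935 did, 25 turned in sign, 4 lost and 1 gained a call. The fit to untransformed intensities called 2 remodeler genes (Brd7 the second, log2 fold change -0.09) and 4 partner genes, and 109 lower and 72 higher of all clusters. Scaling the arrays to the same median called 0 remodeler genes (Smarca4 -0.14), left 1 without overlap, and turned Smarcb1 (0.01), Smarcd3 (0.02), Smarce1 (0.01), Phf10 (0.01), Chd4 (0.02) and Chd5 (0.02); quantile normalization turned Phf10 (0.0045). With the replicate number as a replicate block 0 remodeler and 0 partner genes were called, and 27 lower and 15 higher of all clusters; Smarca4 was at -0.17 (adjusted p = 0.101 from limma). The numbers did not pair the mice: same-numbered mice correlated at -0.126 to 0.125 in their deviations, and 1 of 6 pairs was best with its own number. Leaving out 1 array at a time gave 0 to 1 remodeler genes called, 3 to 5 without overlap, 2 partner genes called each time, and a Smarca4 log2 fold change of -0.18 to -0.16. Of all 23410 clusters, 52 to 127 were called lower and 39 to 89 higher in these fits. Those without overlap were 239 to 330 lower and 159 to 243 higher, against 203 and 133 with every array kept. The ranges that crossed 0 were -0.04 to 0.01 for Smarcb1, -0.01 to 0.02 for Smarcd1, -0.04 to 0.01 for Smarcd3, -0.03 to 0.00105 for Smarce1, -0.04 to 0.00175 for Phf10, -0.00326 to 0.03 for Dpf2, -0.00184 to 0.03 for Ss18l1, -0.02 to 0.00279 for Chd4, -0.04 to 0.01 for Chd5 and -0.16 to 0.04 for Chd7. The cause was not tested, apart from the array of ICR replicate 3 for Chd7, which was given above with and without it. With 6 mice a strain, differences of the members' usual size are within the error.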
